A study of Mus musculus with 12 samples.

Results

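The genes of the 4 Hox clusters were examined in chondrocytes of the superficial zone (SFZ) and the deep zone (DZ) of mouse cartilage. Every gene of the deposited table with a symbol made of Hox, a cluster letter from a to d and a paralog number was taken, which gave 37 of 17536 genes. The Hoxa cluster contributed 11 genes, Hoxb 9, Hoxc 9 and Hoxd 8. Hoxb1 and Hoxd12 were not analysed here.

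RNA-seq had been performed on cells of 5-day-old mice, with 3 libraries for each genotype and zone and 12 libraries in all. The samples are labelled C57BL/6, and the study describes littermates on a C57BL/6J background. The control genotype, R3-Cntl, was Runx3 fl/fl, and the knockout genotype, R3-cKO, was Col2a1-Cre; Runx3 fl/fl, so both carried the floxed Runx3 alleles. Col2a1-Cre is a recombinase driven by regulatory sequence of the type II collagen gene, and it acts from the embryonic stage on in cells that make cartilage matrix. According to the methods of the study, the cells came from the ends of the femur and tibia, SFZ cells were released by trypsin and a first collagenase digestion, DZ cells by a longer second digestion of what was left, and cells were grown as a monolayer. Both zones are described as taken from 3 mice of each genotype, so the SFZ and DZ libraries appear to share animals, although the 6 libraries of each zone were tested as separate unless a block is named. The unit is not written in the deposited table. The values were read as FPKM, fragments divided by transcript length and library depth, from the steps in its low values, and comparisons of levels between genes rest on that reading. Tests were made on log2(FPKM + 1), a scale on which the change of a gene below a few FPKM looks smaller than its ratio.

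Hox genes encode homeodomain transcription factors that lie side by side in 4 clusters. Genes of the same paralog number in different clusters descend from the same ancestral gene. Low numbers lie at one end of a cluster and pattern anterior regions of the embryo, high numbers lie at the other end and pattern posterior regions and the distal limb. Hox9 to Hox11 paralogs of the a, c and d clusters take part in shaping the limb segments, and cells of the adult skeleton keep part of the code of the place where they arose. Hox proteins bind DNA together with TALE homeodomain cofactors of the Pbx and Meis families.

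The labels and the depth were checked first. Runx3 read 10.7, 5.98 and 6.65 FPKM in the R3-Cntl SFZ libraries and 11.8, 9.07 and 3.42 in the R3-cKO SFZ libraries, and 12.7, 12.7 and 7.66 against 16.0, 12.7 and 8.14 in the DZ. It was not lower in the libraries labelled R3-cKO as a group, and since a gene value does not show which exons were read, R3-cKO below means the libraries that carry this label. All 9 tested chondrocyte genes were higher in the DZ and 4 of 5 tested superficial zone genes were lower there (limma, adjusted p under 0.05). Depth, estimated from the smallest steps in the values, was 25.5 to 29.3 M fragments per library, and 69.3 to 79.5% of low values lay within 0.2 of a whole fragment. The 4 Y-linked genes read at most 0.04 FPKM each in libraries 2 and 3 of R3-cKO SFZ and of R3-cKO DZ. In the other libraries, which include every R3-Cntl library, they summed to at least 12.1 FPKM. The genotypes therefore also differed in Y-linked RNA, and its part in the genotype differences below was not tested. R3-Cntl SFZ library 2 stood apart in skeletal muscle genes, and results without it are given below.

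Each cluster occupies a single stretch of the mm9 genome (GENCODE vM1). The Hoxa genes lie at chr6:52105366-52210874, the Hoxb genes at chr11:96055630-96217003, the Hoxc genes at chr15:102751534-102867274 and the Hoxd genes at chr2:74506367-74603200. Some transcripts overlap, so that their values cannot be fully separated. Hoxd4 shares 67.4% of its exon bases with Hoxd3 on the same strand, and Hoxb8 shares 40.4% with Hoxb7. Exons of Hoxb2 (49.4%) and Hoxb3 (37.9%) lie opposite those of Hoxb3os, and 38.6% of Hoxa11 lies opposite an antisense transcript. Whether the counting used strand is not given in the sources used here.

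Hox expression was uneven along the clusters. A mean of at least 1 FPKM in any of the 4 groups was reached by 27 of 37 genes, in all 4 groups by 18, and 10 genes did not reach 1 FPKM on average in any group. In all 12 libraries 15 genes were at 1 FPKM or more. By cluster, 10 of 11 Hoxa, 4 of 9 Hoxb, 8 of 9 Hoxc and 5 of 8 Hoxd genes reached that level in a group. The plot of levels along the clusters shows the highest values at paralogs 9 to 11 of Hoxa, at paralogs 6 and 10 of Hoxc and at paralogs 8 to 10 of Hoxd.

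**Figure D1:**
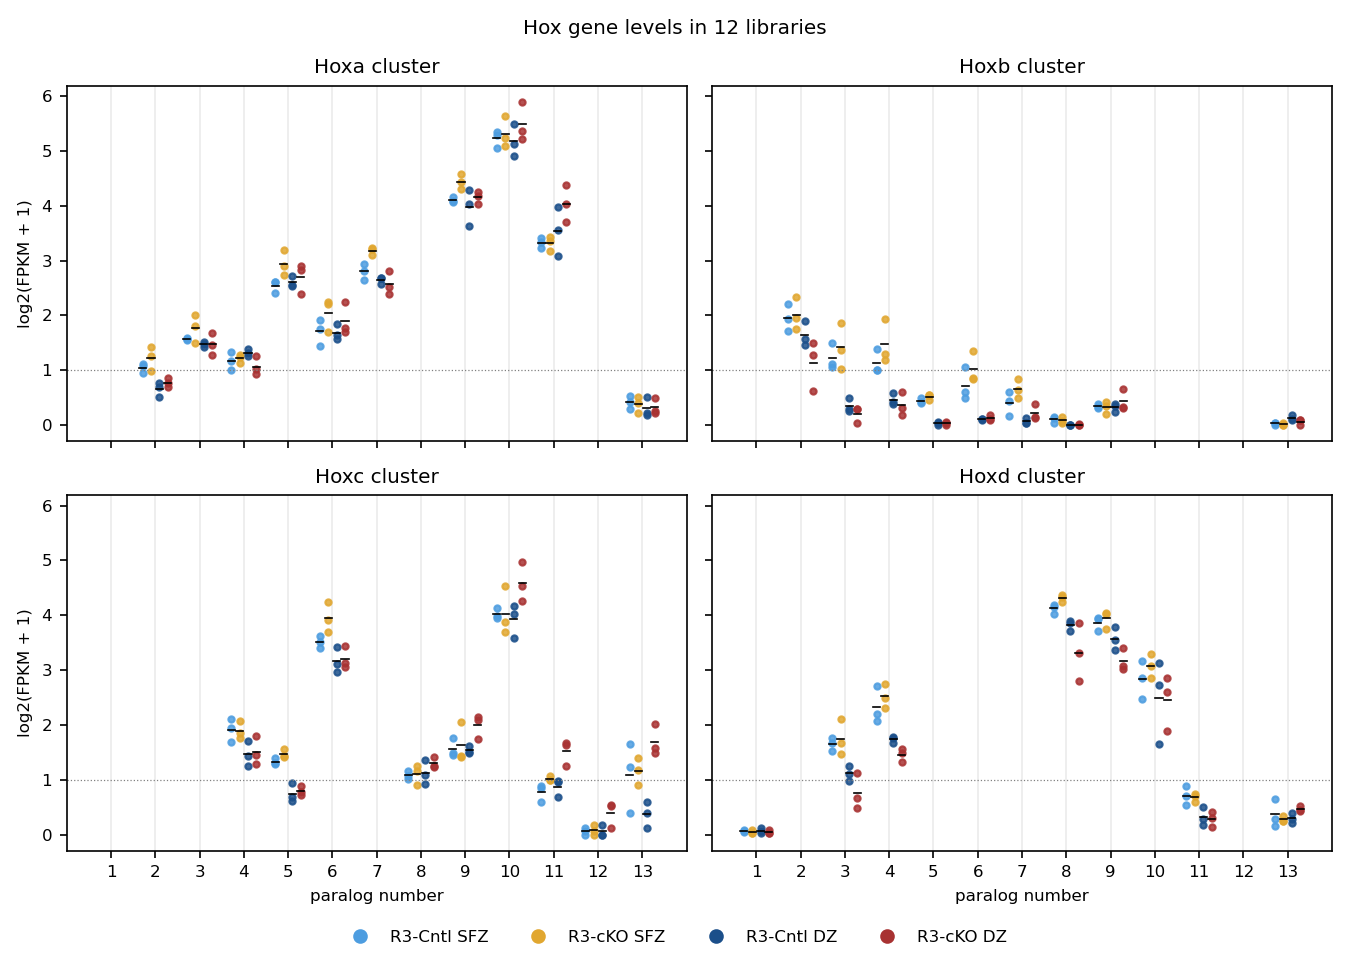
Level of the Hox genes reported here (y axis, log2(FPKM + 1)) by paralog number (x axis) in the 4 clusters. Points are the 3 libraries of each group, black bars their means, and the dotted line marks 1 FPKM; Hoxa10 stands highest in all 12 libraries and the Hoxb cluster lowest.

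Hoxa10, which patterns the upper hindlimb segment, was the most abundant member. It read 32.3, 38.0 and 39.7 FPKM in R3-Cntl SFZ, 36.6, 33.0 and 48.6 in R3-cKO SFZ, 29.1, 34.1 and 43.8 in R3-Cntl DZ and 36.1, 40.0 and 58.3 in R3-cKO DZ. It made up 19.0 to 31.0% of the summed FPKM of all Hox genes in a library. The 4 groups overlapped, and the level did not differ between zones by more than the spread of the libraries (log2 difference 0.06, SE 0.15, limma adjusted p = 0.80).

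Next in order of mean level over the 12 libraries were Hoxc10 (17.3 FPKM), Hoxa9 (17.2), Hoxd8 (14.5), Hoxd9 (11.7), Hoxa11 (11.2) and Hoxc6 (10.4). Among these, the ranges over the libraries of neighbours in the order overlapped. Their values ran from 10.98 to 30.4 FPKM for Hoxc10, 11.5 to 23.0 for Hoxa9 and 5.93 to 19.7 for Hoxd8. Below these, Hoxa7, Hoxd10 and Hoxa5, had means of 6.07, 5.88 and 5.57 FPKM.

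The summed level of the Hoxa genes was 86.7 FPKM on average in SFZ and 87.5 in DZ libraries. The sums of Hoxc were 37.9 and 36.3. For Hoxd they were 46.2 in SFZ and 29.3 in DZ, and for Hoxb 8.14 in SFZ and 2.85 in DZ. The SFZ and DZ libraries did not overlap in the Hoxd sum, which ran from 41.7 to 52.8 FPKM in SFZ and from 21.3 to 39.0 in DZ, nor in the Hoxb sum, which ran from 6.05 to 11.4 in SFZ and from 1.17 to 3.89 in DZ.

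The first comparison asked how Hox levels differ between the 2 zones. In the fit over both genotypes 26 of the 37 genes passed the filter on low values, 13 were called at an adjusted p under 0.05 (limma, 6 libraries per zone), 12 of them lower and 1 higher in the DZ. Over all 11765 genes tested 23.2% were called, 18.9% lower and 4.3% higher in the DZ. The median log2 difference of the 26 Hox genes was -0.29 and that of all genes -0.14, so differences here are to be read against that shift. Without R3-Cntl SFZ library 2, 10 Hox genes and 1624 of all 11661 genes tested were called. Of the 13, Hoxc5, Hoxa2, Hoxb4 and Hoxb3 passed the filter only through their SFZ values and the gene called higher only through its DZ values. Over the other 21 tested genes, 8 were called lower and the median difference was -0.20.

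Most of these called genes lay at the anterior end of the clusters, with the deposited scaling. Of the 21 genes, 12 are paralogs 1 to 8, of which 7 were called lower, and 9 are paralogs 9 to 13, of which Hoxd9 alone was called, lower in the DZ. After quantile normalization the calls were 2 lower and 1 higher among the first set and 0 lower and 2 higher among the second, and with median-of-ratios size factors 2 lower among the first and 1 lower and 1 higher among the second. The median difference was -0.40 for the first set and 0.06 for the second, and these were -0.16 and 0.18 after quantile normalization and -0.27 and 0.22 with median-of-ratios size factors. The plot of the zone difference shows the change of sign along the Hoxc cluster.

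**Figure D2:**
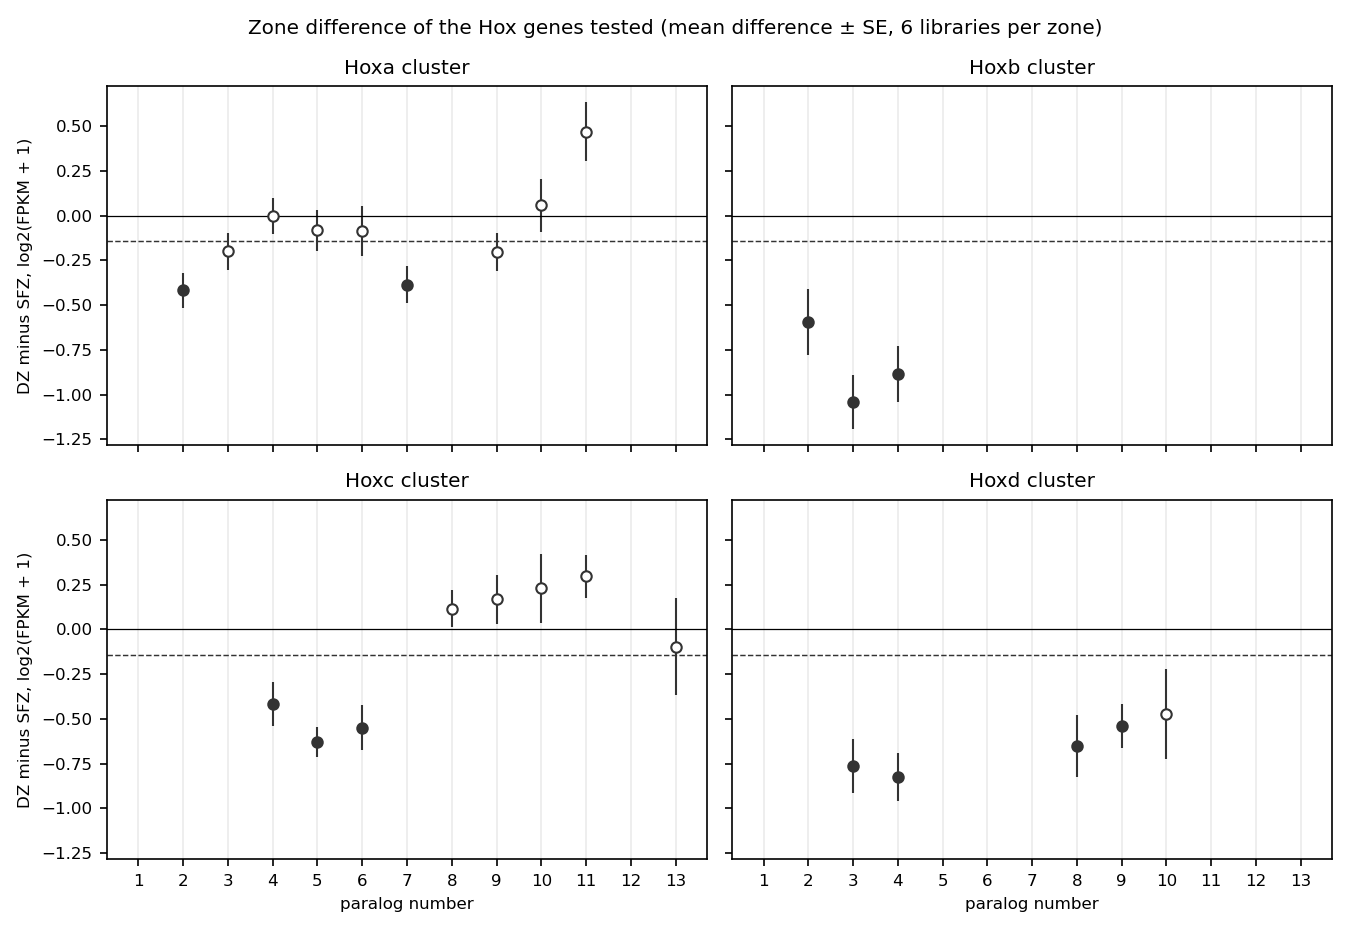
Difference between zones (y axis, DZ minus SFZ in log2(FPKM + 1), mean and SE, 6 libraries per zone) of the tested Hox genes reported here, by paralog number. Filled points have a limma adjusted p under 0.05, and the dashed line is the median of all genes (-0.14); Hoxb and Hoxd genes all lie below it, and Hoxc4 to Hoxc6 lie below and Hoxc8 to Hoxc11 above 0.

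Of the 26 tested genes, 7 had no overlap between the 6 SFZ and 6 DZ libraries, all of them lower in the DZ. Among all genes tested, 9.71% were lower without overlap and 1.64% higher. The 7 were Hoxa2, Hoxb3, Hoxb4, Hoxc5, Hoxd3, Hoxd4 and Hoxd8. Of these, Hoxa2, Hoxb3, Hoxb4 and Hoxc5 reached 1 FPKM in SFZ libraries alone, so that they passed the filter only through the zone where they were high and had to differ. The count of 7 is therefore a description.

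Hoxb3, which patterns the hindbrain and neck in the embryo, had the largest log2 difference of the tested members. It read 1.16, 1.83 and 1.09 FPKM in R3-Cntl SFZ, 1.04, 1.58 and 2.63 in R3-cKO SFZ, 0.23, 0.20 and 0.41 in R3-Cntl DZ and 0.23, 0.22 and 0.03 in R3-cKO DZ. Every SFZ library was above every DZ library, and the ratio of the zone means was 7.07. The log2 difference was -1.04 (SE 0.15, limma adjusted p = 0.00173). Hoxb3 passed the filter through SFZ values alone, so its place as the largest is a description.

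Its neighbour Hoxb4, known for its effect on blood stem cells, read 1.0, 1.62 and 1.0 FPKM in R3-Cntl SFZ, 1.29, 1.45 and 2.82 in R3-cKO SFZ, 0.33, 0.31 and 0.50 in R3-Cntl DZ and 0.52, 0.24 and 0.14 in R3-cKO DZ. The zones again did not overlap, with means of 1.53 ± 0.678 FPKM in SFZ and 0.340 ± 0.148 in DZ (SD, n = 6). The log2 difference was -0.89 (SE 0.16, limma adjusted p = 0.00393), and Hoxb4 also passed the filter through SFZ values alone. Hoxb2 was the third Hoxb gene tested, at 2.29 to 4.06 FPKM in SFZ and 0.53 to 2.72 in DZ, with overlapping zones (-0.60, SE 0.19, limma adjusted p = 0.0407).

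The rest of the Hoxb cluster was below the filter and was compared by exact two-sided permutation tests over the 6 SFZ and 6 DZ libraries, which were run on 8 members and can give no p below 0.00216. Hoxb5 fell from 0.393 ± 0.0619 FPKM in SFZ to 0.0200 ± 0.0179 in DZ (SD, n = 6, exact p = 0.00216). Hoxb6 fell from 0.862 ± 0.415 to 0.0833 ± 0.0294 FPKM (SD, n = 6, exact p = 0.00216). These levels are low: 1 fragment of Hoxb5 is worth about 0.0134 FPKM, so its DZ values of 0 to 0.04 rest on a few fragments at most. Both genes reached the 0.1 FPKM in 3 libraries needed for the test through SFZ values alone, so their p-values are a description.

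Hoxb7 was at 0.12 to 0.79 FPKM in SFZ and 0.03 to 0.30 in DZ, with a small overlap (exact permutation p = 0.00433). It too entered this test through SFZ values alone. Hoxb8, whose exons overlap Hoxb7, was at 0.03 to 0.11 FPKM in SFZ and at 0 in all but 1 of the DZ libraries. Hoxb9, the next gene towards the posterior end, was at 0.15 to 0.34 FPKM in SFZ and 0.18 to 0.58 in DZ and did not pass the test (exact permutation p = 0.63). Hoxb13, the most posterior gene of the cluster, was listed at 0 to 0.14 FPKM. Means were thus lower in the DZ from Hoxb2 to Hoxb8 and not lower for Hoxb9 and Hoxb13, with the call of Hoxb2 lost under median-of-ratios size factors and quantile normalization (limma adjusted p = 0.103 and 0.274).

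**Figure D3:**
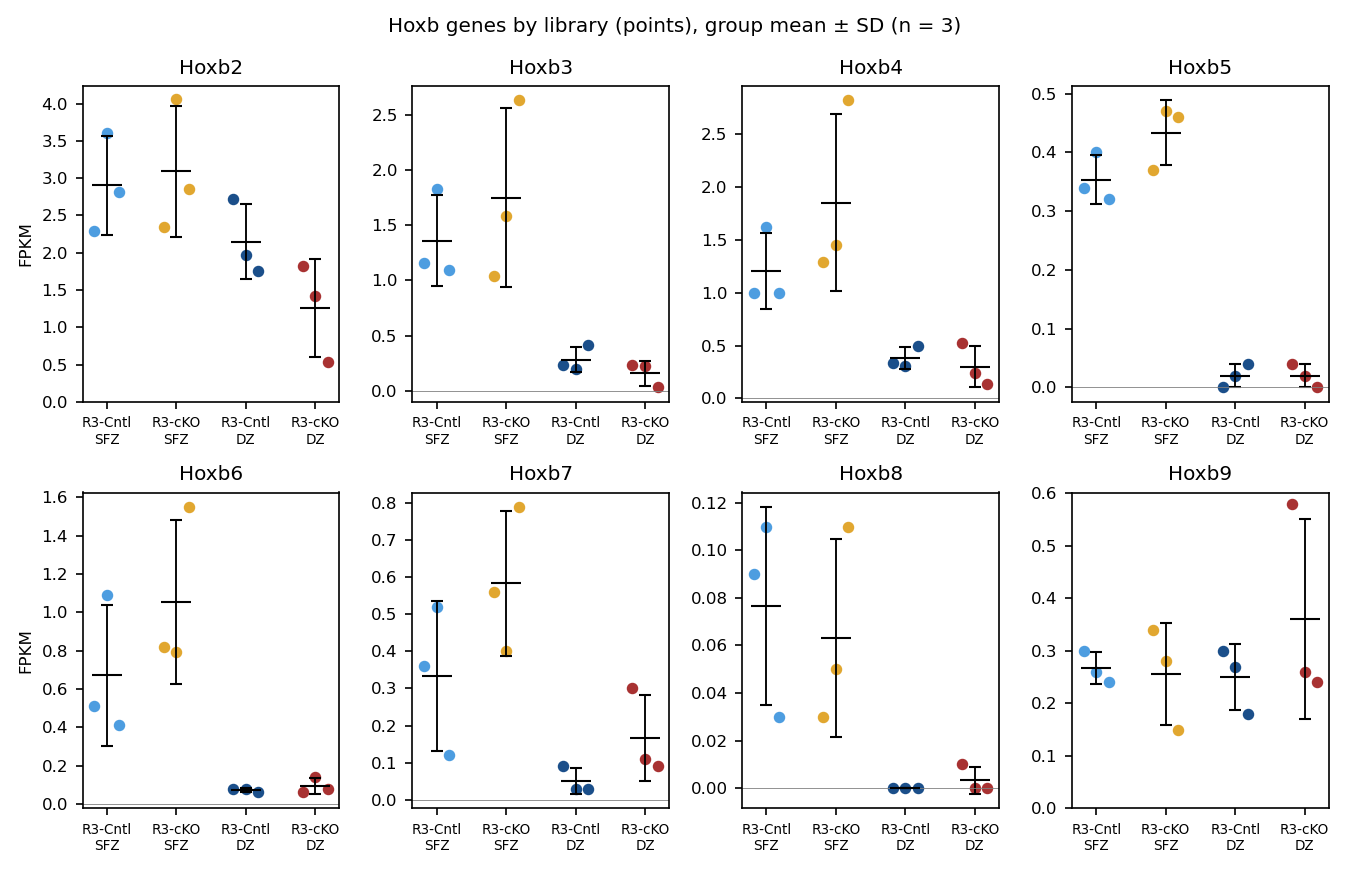
FPKM (y axis) of the Hoxb genes from Hoxb2 to Hoxb9 in the 4 groups (x axis). Points are libraries, horizontal bars the group means and whiskers the SD (n = 3); from Hoxb3 to Hoxb6 every SFZ library lies above every DZ library, and for Hoxb9 the zones overlap.

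In the Hoxd cluster all 5 tested genes had lower means in the DZ under all 3 scalings, and 4 were called with the deposited one. Hoxd4 read 5.54, 3.60 and 3.22 FPKM in R3-Cntl SFZ, 4.62, 3.98 and 5.73 in R3-cKO SFZ, 2.41, 2.20 and 2.43 in R3-Cntl DZ and 1.5, 1.95 and 1.81 in R3-cKO DZ. The lowest SFZ value stood above the highest DZ value (-0.82, SE 0.14, limma adjusted p = 0.00273). Hoxd3 was at 1.78 to 3.30 FPKM in SFZ and 0.40 to 1.38 in DZ (-0.76, SE 0.15, limma adjusted p = 0.00611), and as it overlaps Hoxd4 the 2 values are not independent.

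Hoxd8 was an abundant gene of the cluster at 16.8, 17.2 and 15.3 FPKM in R3-Cntl SFZ, 19.7, 17.9 and 19.1 in R3-cKO SFZ, 12.0, 13.5 and 13.9 in R3-Cntl DZ and 8.96, 13.4 and 5.93 in R3-cKO DZ. Its zones did not overlap, and the DZ values of R3-cKO were the most spread (-0.65, SE 0.17, limma adjusted p = 0.0215). Its call was lost with median-of-ratios size factors and after quantile normalization (limma adjusted p = 0.065 and 0.0718). Hoxd9, a limb patterning gene, was at 12.1 to 15.5 FPKM in SFZ and 7.07 to 12.8 in DZ, where only the highest DZ library reached the SFZ range (-0.54, SE 0.12, limma adjusted p = 0.0109), and it was not called after quantile normalization (limma adjusted p = 0.0673). Hoxd10 was at 4.52 to 8.75 FPKM in SFZ and 2.14 to 7.71 in DZ and was not called (-0.47, SE 0.25, limma adjusted p = 0.19). It was higher in SFZ in 6 of 6 pairs of libraries with the same number, and with the replicate number as a block it was called lower in the DZ (limma adjusted p = 0.0357). The numbers are not known to pair the R3-Cntl SFZ libraries. Of these, library 2, at 6.25 FPKM, was below R3-Cntl DZ library 3, at 7.71.

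Hoxd11, which acts with Hoxa11 in the lower segments of the limb, was below the filter. It fell from 0.623 ± 0.136 FPKM in SFZ to 0.237 ± 0.118 in DZ without overlap (SD, n = 6, exact permutation p = 0.00216). Hoxd13, which patterns the digits, was at 0.12 to 0.57 FPKM in SFZ and 0.16 to 0.43 in DZ and did not pass the test (exact permutation p = 0.49). Hoxd1 was at 0.08 FPKM or less in all libraries.

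In the Hoxc cluster the differences had both signs. Hoxc4, Hoxc5 and Hoxc6, the 3 genes at its anterior end, were called lower in the DZ with the deposited scaling, and Hoxc5 alone of them under the other two. Hoxc5 was at 1.46, 1.63 and 1.45 FPKM in R3-Cntl SFZ, 1.69, 1.65 and 1.96 in R3-cKO SFZ, 0.53, 0.61 and 0.91 in R3-Cntl DZ and 0.65, 0.84 and 0.71 in R3-cKO DZ. The groups of the same zone lay close together and the zones apart, and Hoxc5 had the lowest adjusted p of the members (-0.63, SE 0.08, limma adjusted p = 0.00112). It passed the filter through SFZ values alone, so this rank is a description.

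Hoxc6, the most abundant of the 3, was at 9.60 to 17.96 FPKM in SFZ and 6.79 to 9.79 in DZ with a slight overlap (-0.55, SE 0.13, limma adjusted p = 0.0121). Hoxc4 was at 2.21 to 3.32 FPKM in SFZ and 1.38 to 2.46 in DZ (-0.42, SE 0.12, limma adjusted p = 0.0302). With median-of-ratios size factors and after quantile normalization the limma adjusted p was 0.0667 and 0.0984 for Hoxc6 and 0.108 and 0.351 for Hoxc4. From Hoxc8 to Hoxc11 the DZ means were the higher ones, with log2 differences of 0.12, 0.17, 0.23 and 0.30, and none of these was called (limma adjusted p = 0.44, 0.41, 0.41 and 0.097). Hoxc8 and Hoxc11 were called higher in the DZ after quantile normalization, at log2 differences of 0.39 and 0.60 (limma adjusted p = 0.0135 and 0.00777). Hoxc13, a regulator of hair and nail keratin genes, had a wide spread in both zones, 0.32 to 2.15 FPKM in SFZ and 0.09 to 3.04 in DZ (-0.10, SE 0.27).

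The Hoxa cluster showed no common direction. Hoxa2, which specifies the second pharyngeal arch, was lower in the DZ, at 0.92 to 1.67 FPKM in SFZ and 0.42 to 0.81 in DZ without overlap (-0.42, SE 0.10, limma adjusted p = 0.0120). Hoxa2 passed the filter through SFZ values alone. Hoxa7 was at 5.28 to 8.33 FPKM in SFZ and 4.26 to 5.97 in DZ with overlapping zones (-0.38, SE 0.11, limma adjusted p = 0.0235). After quantile normalization neither was called (limma adjusted p = 0.589 and 0.346), nor was Hoxa7 with median-of-ratios size factors (0.139).

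Hoxa11, which shapes the lower leg and forearm, was at 8.05 to 9.83 FPKM in SFZ and 7.52 to 19.8 in DZ (0.47, SE 0.17, limma adjusted p = 0.0613). It passed the threshold under both other scalings, with adjusted p-values of 0.0189 and 0.0240. Hoxa3, Hoxa4, Hoxa5, Hoxa6, Hoxa9 and Hoxa10 were not called, with log2 differences from -0.20 to 0.06, and the direction of the cluster as a whole changed with the scaling: 7 of 10 genes were lower in the DZ with the deposited scaling and 3 of 10 after quantile normalization. Hoxa13 and Hoxc12 were below the filter and did not pass the exact permutation test (p = 0.34 and 0.24).

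The scaling set which calls were made. After quantile normalization 5 genes were called lower and 4 higher in the DZ, against 12 and 1, and over all genes the calls were then 864 lower and 1238 higher, against 2219 and 506. Calls that held under both other scalings were those of Hoxb3, Hoxb4, Hoxc5, Hoxd3 and Hoxd4, all lower in the DZ, beside the call on the higher side. Hoxb3, Hoxb4 and Hoxc5 are among the genes that passed the filter through SFZ alone. With each library left out in turn, 9 of the 13 calls held in every fit, while those of Hoxa7, Hoxb2 and Hoxc4 were among the lost ones, at limma adjusted p-values up to 0.0505, 0.0912 and 0.0785.

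The zones also differed in genes of other cell types. The 10 tendon and fibroblast genes summed to 3939 to 11247 FPKM in SFZ and 539.8 to 2949 in DZ libraries, and 8 of the 10 were called lower in the DZ, Tnmd (-4.95) and Col1a1 (-3.73) most. The 10 macrophage genes summed to 7.88 to 199 FPKM in SFZ and 3.57 to 26.7 in DZ, and all 10 were called lower (limma, adjusted p under 0.05), Lyz2 (-2.66) and Fcer1g (-2.15) most. With median-of-ratios size factors 6 of these macrophage genes were called lower and after quantile normalization 3, while the tendon and fibroblast calls numbered 7 under each. None of the defining genes of these lists was at 0 in all libraries, and their part in the Hox differences was not tested. In such bulk samples, fewer cells of a type and less RNA per cell cannot be told apart.

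Of the TALE cofactors, 8 of 9 were tested, and 4 were called lower in the DZ and none higher (limma, adjusted p under 0.05, median log2 difference -0.69). Over all genes tested, 18.9% were called lower and 4.3% higher, with a median of -0.14. Meis2, a cofactor of proximal limb cells, fell by 1.06 (SE 0.14, limma adjusted p = 0.00117). Meis1 (-0.86) and Pbx3 (-0.70) were also among the called cofactors. Under each of the other two scalings 4 were called lower and 1 higher.

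Genes that lie next to the clusters were followed for comparison. Of 19 neighbours 14 were tested, and 5 were called lower and 1 higher in the DZ (limma, adjusted p under 0.05, median -0.24). The shares of all genes were 18.9% lower and 4.3% higher. With median-of-ratios size factors 1 was called lower and 2 higher, and after quantile normalization 2 lower and 2 higher. Skap2, beside the Hoxa cluster, rose by 0.51 (SE 0.16, limma adjusted p = 0.0347), and Atf2, beyond the Hoxd cluster, fell by 0.50 (SE 0.09, limma adjusted p = 0.00328). Of 26 genes of the Polycomb and trithorax groups, which keep Hox genes silent or active, 5 were called lower and 0 higher, close to the 18.9% of all genes called lower, and their median of -0.18 was close to the -0.14 of all genes, while after quantile normalization 0 were lower and 1 higher. The largest differences there were those of Cbx7 (-0.61) and Ezh2 (-0.40, adjusted p = 0.47). None of 18 listed RNAs of the clusters, such as Hotair and the miRNAs of the miR-10 and miR-196 families, was analysed here.

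Within each genotype the tests rested on 3 libraries per zone. In R3-Cntl no Hox gene of 22 tested was called at an adjusted p under 0.05 (limma), against 1.24% of all genes, and 7 were lower and 0 higher at an unadjusted p under 0.05, against 22.4% and 4.94% of all genes. The 7 were Hoxb3, Hoxb4, Hoxc4, Hoxc5, Hoxd3, Hoxd4 and Hoxd8, of which Hoxb3, Hoxb4 and Hoxc5 passed the filter through SFZ values alone, in R3-cKO as well. Hoxb3 had the largest difference (-0.87, SE 0.18, limma adjusted p = 0.0631), followed by Hoxb4 (-0.67, SE 0.17, limma adjusted p = 0.0862) and Hoxd4 (-0.59, SE 0.19, limma adjusted p = 0.12). The unadjusted count was 2 without R3-Cntl SFZ library 1, 2 without library 2 and 4 without library 3, and it was 3 after quantile normalization, 1 lower and 2 higher.

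In R3-cKO no Hox gene of 25 tested was called (limma, adjusted p under 0.05), against 0.0176% of all genes, and 10 were lower and 4 higher at an unadjusted p under 0.05, against 11.1% and 3.03% of all genes. The largest differences were those of Hoxb3 (-1.21, SE 0.24, limma adjusted p = 0.14), Hoxb4 (-1.11, SE 0.25, limma adjusted p = 0.17) and Hoxd4 (-1.06, SE 0.16, limma adjusted p = 0.0995). Hoxa11, Hoxc11 and Hoxc13 were among the 4 genes on the higher side. The replicate numbers were taken to pair these libraries, from correlations in the same values and not from the labels. In the fit with the number as a block, Hoxd4 was called lower (limma adjusted p = 0.0438). That fit called 352 of all 11336 genes, so 1 of 25 Hox genes is near the share of all genes. Without R3-cKO SFZ library 3 the unadjusted count was 8 in place of 14. The zone difference had the same sign in both genotypes for 17 of the 22 genes tested in both. With all 12 libraries in 1 model, 8 of the 25 genes were called in R3-cKO and 2 of the 22 in R3-Cntl, all lower. Over all 11336 genes that model called 165 in R3-cKO and 798 in R3-Cntl.

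Promoters of the genes that separated the zones were taken from RefSeq (GRCm38.p6), where 20 of the 37 members had an entry, 22 promoters in all. Of the 7 tested genes without overlap between the zones, 5 had an entry, and they are shown because these genes were lower together in the DZ. Each is the 250 bases before the start, from 5′ to 3′ on the strand of the gene. Hoxa2 lies at chr6:52164832-52165081 (reverse strand), Hoxb4 at chr11:96318017-96318266, Hoxd3 at chr2:74711743-74711992, Hoxd4 at chr2:74721728-74721977 and Hoxd8 at chr2:74704365-74704614 (forward strand). Capitals mark words on either strand: TGTGGT or TGCGGT, which fit the Runx consensus TG(T/C)GGT, and TGATNNAT, which fits the joint Pbx and Hox site. The study recovered the wider motif TG(T/C)GG(T/C) for Runx3. TGTGGC and TGCGGC, which also fit that motif, were neither marked nor counted.
Hoxa2: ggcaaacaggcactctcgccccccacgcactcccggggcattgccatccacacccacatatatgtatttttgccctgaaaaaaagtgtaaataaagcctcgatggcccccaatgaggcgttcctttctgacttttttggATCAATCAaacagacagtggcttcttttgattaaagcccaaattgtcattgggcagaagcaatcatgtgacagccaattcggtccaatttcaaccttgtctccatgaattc
Hoxb4: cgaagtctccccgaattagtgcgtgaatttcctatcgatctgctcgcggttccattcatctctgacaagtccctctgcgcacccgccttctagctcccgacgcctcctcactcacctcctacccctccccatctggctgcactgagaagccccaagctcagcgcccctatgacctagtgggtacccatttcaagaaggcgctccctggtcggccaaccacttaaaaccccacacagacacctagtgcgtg
Hoxd3: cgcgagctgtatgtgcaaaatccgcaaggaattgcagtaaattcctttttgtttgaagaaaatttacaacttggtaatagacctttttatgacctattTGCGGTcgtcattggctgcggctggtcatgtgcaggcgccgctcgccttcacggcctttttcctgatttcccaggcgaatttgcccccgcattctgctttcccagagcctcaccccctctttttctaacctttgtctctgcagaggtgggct
Hoxd4: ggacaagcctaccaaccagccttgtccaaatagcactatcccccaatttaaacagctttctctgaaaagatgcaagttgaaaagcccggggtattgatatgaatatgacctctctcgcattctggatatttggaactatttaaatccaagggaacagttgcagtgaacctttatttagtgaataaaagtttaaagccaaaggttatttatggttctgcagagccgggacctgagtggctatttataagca
Hoxd8: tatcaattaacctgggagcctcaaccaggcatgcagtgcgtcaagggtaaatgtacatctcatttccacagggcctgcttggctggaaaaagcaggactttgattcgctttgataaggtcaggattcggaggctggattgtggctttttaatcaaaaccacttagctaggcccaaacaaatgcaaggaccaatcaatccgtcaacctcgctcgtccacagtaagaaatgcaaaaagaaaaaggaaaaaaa

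Hoxd3 held TGCGGT at position -152 from the start, and Hoxa2 held TGATNNAT at -111 on the opposite strand, which reads ATCAATCA in the line above. Hoxb4, Hoxd4 and Hoxd8 held none of the marked words in this window. Unmarked in the lines above, Hoxd8 holds TGTGGC and Hoxd3 holds TGCGGC, which fit only the wider motif. Over the 22 Hox promoters 13.6% held TGTGGT or TGCGGT, against 18.6% of 32851 promoters of the same length, and 13.6% held TGATNNAT, against 7.68%. The median number of CG pairs was 13 in the Hox promoters and 6 in all promoters. A match of letters is a description and shows no binding.

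The next comparison asked how Hox levels differ between R3-cKO and R3-Cntl cells of the SFZ. No gene was called at an adjusted p under 0.05, neither among the 24 Hox genes tested nor among all 11537 (0%, limma). At an unadjusted p under 0.05, 4 Hox genes were higher and 0 lower in R3-cKO, against 0.182% and 0.113% of all genes. The 3 libraries of each genotype did not overlap for 6 tested genes, all higher in R3-cKO, against 1.45% of all genes higher and 0.953% lower. The median log2 difference was 0.16 for the 24 Hox genes and -0.01 for all genes, and 23 of the 24 had a higher mean of log2(FPKM + 1) in R3-cKO, against 47.5% of all genes. On the FPKM scale the mean of Hoxc13 was also slightly lower, at 1.26 against 1.27, beside Hoxc4 at 2.73 against 2.79.

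Among the 4, Hoxc6 had R3-Cntl values of 9.60, 11.3 and 10.4 FPKM and R3-cKO values of 14.1, 12.0 and 17.96 (0.43, SE 0.16). Hoxa5, which patterns the lung and the neck, had R3-Cntl values of 5.10, 4.29 and 5.10 FPKM against 5.69, 6.44 and 8.09 (0.40, SE 0.15). Hoxa7 was at 6.71, 5.28 and 6.05 against 8.28, 7.55 and 8.33 FPKM (0.37, SE 0.12). In each case the lowest R3-cKO library stood above the highest R3-Cntl library.

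Hoxa9 was at 15.7, 16.8 and 16.1 FPKM against 18.9, 20.5 and 23.0 (0.34, SE 0.11). The remaining non-overlapping genes were Hoxd8 (0.19, SE 0.10) and Hoxc5 (0.14, SE 0.13). The limma adjusted p of each of these 6 genes was 0.9997, and an exact permutation test of 3 against 3 libraries cannot go below 0.1. The counts rested on single libraries: 0 Hox genes were left at the unadjusted threshold without R3-cKO SFZ library 3, and 1 without R3-Cntl SFZ library 1, 2 or 3. With a library left out in turn, 19 to 21 of the 24 genes had the higher log2 mean in R3-cKO. The 10 tendon and fibroblast genes summed to 4299 to 7917 FPKM in R3-Cntl SFZ and 3939 to 11247 in R3-cKO SFZ, highest in R3-cKO library 3, and 8 of the 10 had higher means (median 0.13) with 0 called. The 12 skeletal muscle genes summed to 174.7 FPKM in R3-Cntl SFZ library 2 and to 6.7 to 22.5 FPKM in the other libraries, and the 4 tested had lower means in R3-cKO SFZ (median -0.96) with 0 called. The macrophage and chondrocyte sums of the genotypes overlapped, and the part of these genes in the Hox difference was not tested.

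In the DZ the means of the Hoxc and Hoxd genes differed between genotypes in opposite directions, with none called. The 5 Hoxc genes that reached 1 FPKM in both genotypes had higher means in R3-cKO (log2 differences of 0.04 to 0.66, median 0.18), where 62.3% of all genes had a higher mean, and the 5 tested Hoxd genes had lower means (median -0.35). After quantile normalization 3 of these 5 Hoxc genes were higher, and with median-of-ratios size factors 4, while the 5 Hoxd genes were lower under both. Hoxc11 and Hoxc13 passed the filter only through their R3-cKO values and are left out of these counts. No gene was called at an adjusted p under 0.05 among the 22 Hox genes or among all 11091 tested (0%, limma). At an unadjusted p under 0.05, 5 Hox genes were higher and 1 lower, against 2.5% and 1.15% of all genes.

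**Figure D4:**
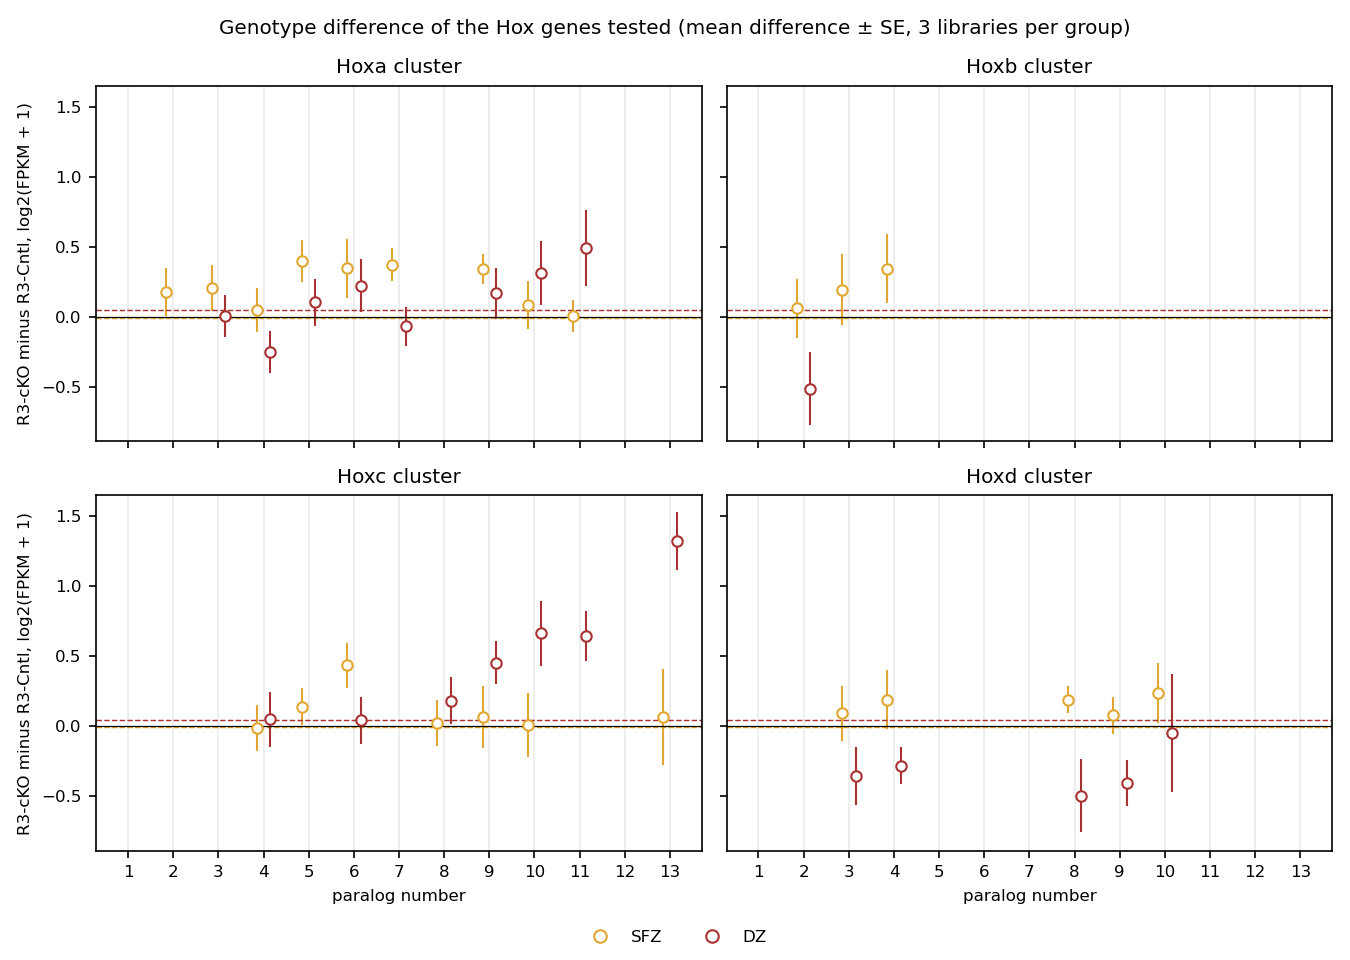
Difference between genotypes (y axis, R3-cKO minus R3-Cntl in log2(FPKM + 1), mean and SE, 3 libraries per group) in SFZ (yellow) and DZ cells (red), by paralog number in the 4 clusters. Open points have a limma adjusted p of 0.05 or more, and dashed lines are the medians of all genes (-0.01 in SFZ, 0.05 in DZ); in the DZ the Hoxc genes lie above 0, most of all Hoxc13, and the Hoxd genes below.

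The 5 higher genes included Hoxc9, Hoxc10, Hoxc11 and Hoxc13, and none of the 5 overlapped between genotypes. Among all genes 5.26% were higher and 2.78% lower without overlap. The plot of the posterior Hoxc genes shows their libraries.

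Hoxc13, which passed the filter in the DZ only through R3-cKO values, was at 0.09, 0.31 and 0.51 FPKM in R3-Cntl DZ and 3.04, 1.99 and 1.80 in R3-cKO DZ. Its lowest R3-cKO value was above its highest R3-Cntl value by more than 1 FPKM, and the ratio of the means was 7.51 (log2 difference 1.32, SE 0.21, limma adjusted p = 0.9986). The SFZ libraries of R3-Cntl, at 0.32, 1.34 and 2.15 FPKM, overlapped those of R3-cKO, at 0.87, 1.63 and 1.27 (0.07, SE 0.34).

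Hoxc10, a hindlimb gene, was at 10.98, 15.3 and 16.9 FPKM in R3-Cntl DZ and 22.1, 18.1 and 30.4 in R3-cKO DZ (0.66, SE 0.23). Hoxc11, its neighbour with a similar domain, was at 0.60, 0.98 and 0.94 against 2.11, 1.37 and 2.18 FPKM (0.64, SE 0.18). Hoxc9 was at 1.83, 2.08 and 1.80 against 3.40, 2.34 and 3.27 FPKM (0.45, SE 0.15). All 3 genes were without overlap in the DZ, and the limma adjusted p was 0.9986 for each.

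Hoxc12, between Hoxc11 and Hoxc13, was below the filter at 0, 0 and 0.13 FPKM in R3-Cntl DZ and 0.46, 0.09 and 0.44 in R3-cKO DZ. A fragment of Hoxc12 is worth about 0.0366 FPKM, and its groups overlapped (exact permutation p = 0.2). Hoxd13, also below the filter, was the only such member without overlap, at 0.233 ± 0.0808 FPKM in R3-Cntl DZ and 0.380 ± 0.0436 in R3-cKO DZ (SD, n = 3, exact permutation p = 0.1, the smallest possible). The anterior genes of the Hoxc cluster differed less, with log2 differences of 0.05 for Hoxc4, 0.04 for Hoxc6 and 0.18 for Hoxc8.

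**Figure D5:**
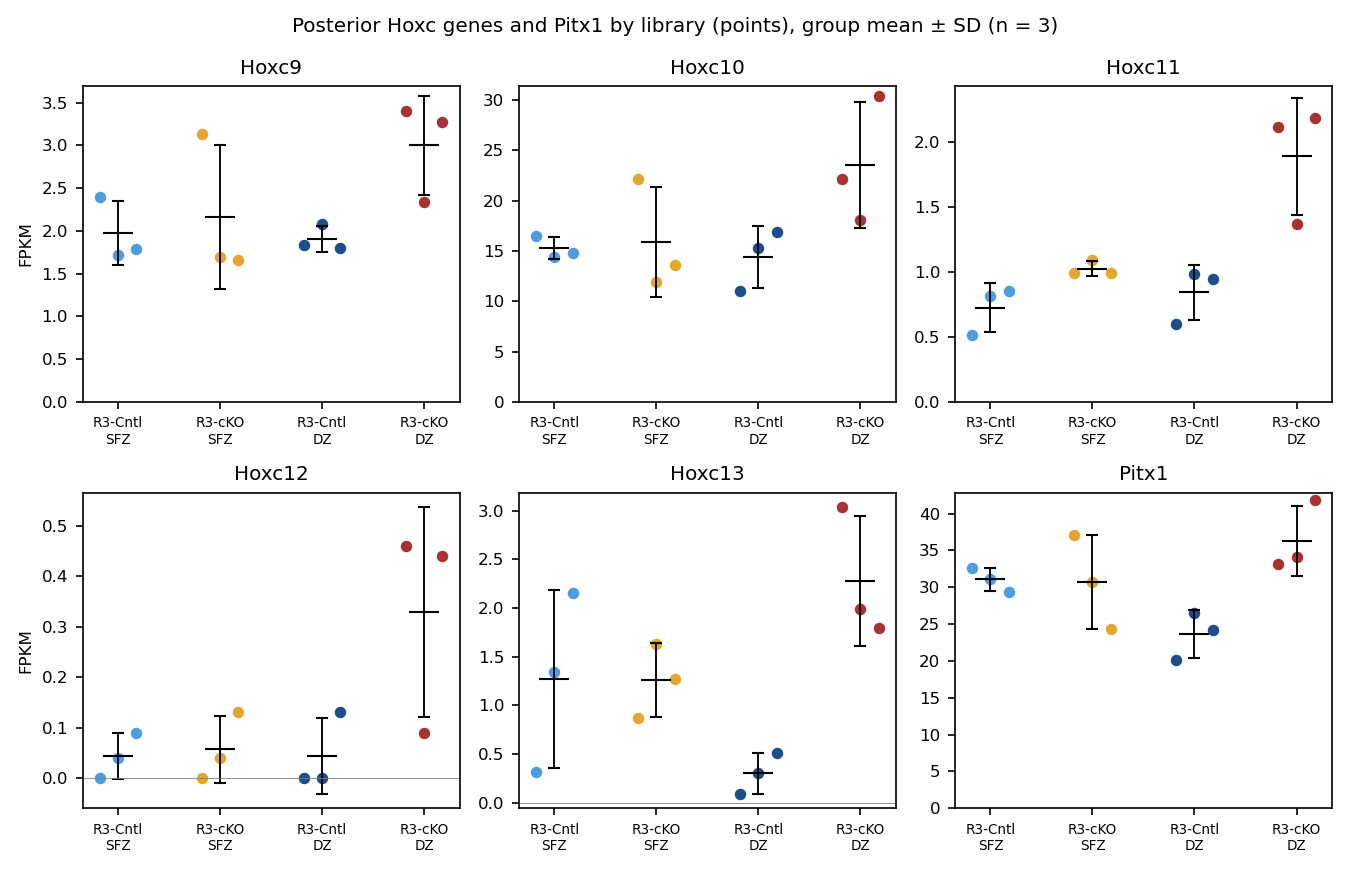
FPKM (y axis) of Hoxc9 to Hoxc13 and of Pitx1, a hindlimb gene outside the clusters, in the 4 groups (x axis). Points are libraries, horizontal bars the group means and whiskers the SD (n = 3); in the DZ the R3-cKO libraries lie above the R3-Cntl libraries for each gene but Hoxc12, and in the SFZ the genotypes overlap for each gene but Hoxc11.

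On the lower side, Hoxd9 was at 9.26, 10.8 and 12.8 FPKM in R3-Cntl DZ and 7.07, 9.51 and 7.44 in R3-cKO DZ (-0.40, SE 0.16), and a single R3-cKO library reached into the R3-Cntl range. Hoxd4 was the only gene that was lower without overlap, at 2.41, 2.20 and 2.43 against 1.5, 1.95 and 1.81 FPKM (-0.28, SE 0.13). Hoxb2, the only Hoxb gene tested, was at 2.72, 1.97 and 1.76 against 1.82, 1.42 and 0.53 FPKM (-0.52, SE 0.26). The limma adjusted p of these 3 was 0.9986.

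Replicate numbers were taken to pair the DZ libraries, from correlations in the same values and not from the labels. With the number as a block 7 Hox genes were higher and 2 lower at an unadjusted p under 0.05, still with 0 called (limma). The block also raised the counts over all 11091 genes tested, from 277 to 1278 higher and from 127 to 552 lower. Hoxa10 and Hoxa11 were then among the higher genes (limma adjusted p = 0.20 and 0.15) and Hoxb2 among the lower (limma adjusted p = 0.24). Left-out libraries changed the count of 6 without the block to 3 without R3-Cntl DZ library 1, 1 without R3-cKO DZ library 1 and 0 without R3-cKO DZ library 3. Without R3-cKO DZ library 1 or 3 the filter also removed genes that it had passed through R3-cKO values alone, and 19 Hox genes were tested.

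Other genes also had different means in the DZ of the 2 genotypes, although none was called. Pitx1, which specifies the hindlimb, had R3-Cntl values of 20.1, 26.6 and 24.2 FPKM and R3-cKO values of 33.1, 34.1 and 41.8, without overlap (0.60, SE 0.15, limma adjusted p = 0.9986). Tbx4, also a hindlimb gene, was at 1.77, 3.42 and 3.29 against 2.09, 4.79 and 5.05 FPKM (0.35, SE 0.32). The forelimb gene Tbx5 had a lower mean in R3-cKO, at 7.39, 8.45 and 6.74 against 6.72, 10.4 and 3.85 FPKM (-0.18, SE 0.30). The 21 keratinocyte genes in the table summed to 15.3 to 23.0 FPKM in R3-Cntl DZ and 35.5 to 52.0 in R3-cKO DZ, and 3 of the 7 tested were higher at an unadjusted p under 0.05 (limma, median 0.80), with Slurp1 (1.70) and Krt17 (1.24) the largest. The basal keratins Krt5 and Krt14 were at 0.10 FPKM or less in every DZ library and none of 8 hair and nail genes in the table reached 1 FPKM. The 10 macrophage genes summed to 7.71 to 26.7 FPKM in R3-Cntl DZ and 3.57 to 6.32 in R3-cKO DZ, without overlap. The 9 chondrocyte genes summed to 21935 to 33938 and 15965 to 26924 FPKM, with a median difference of -0.44, and Hapln1 (-0.72, SE 0.20) was lower at an unadjusted p under 0.05. The part of these genes in the Hoxc difference was not tested.

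The difference in genotype effect between the zones was tested as an interaction over all 12 libraries. No gene was called at an adjusted p under 0.05 among 26 Hox genes or among all 11765 (0%, limma). At an unadjusted p under 0.05, 1 Hox gene was on the higher side in the DZ and 3 on the lower side, against 0.663% and 0.178% of all genes. Hoxc13 had the largest interaction (1.26, SE 0.42), followed by Hoxd8 (-0.69, SE 0.30) and Hoxc10 (0.65, SE 0.35).

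Hoxa7 (-0.44, SE 0.17) and Hoxd9 (-0.48, SE 0.21) were the other two. By cluster, the interaction was below 0 for all 5 Hoxd and all 3 Hoxb genes tested and above 0 for 6 of 8 Hoxc genes. The unadjusted count of 4 was 1 when library 2 of R3-Cntl, of either zone, or library 3 of R3-cKO, of either zone, was left out. It was 2 when library 3 of R3-Cntl, of either zone, or library 1 of R3-cKO DZ was. The limma adjusted p of each named gene was 0.9992, so a difference in the genotype effect between zones was not shown for any Hox gene at this number of libraries.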

How the data were processed

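RNA-seq values of 12 libraries were analysed, 3 for each genotype and zone. According to the methods of the study, 100-bp paired-end reads were mapped to mm9, and Bowtie 0.12.2 is named in the submitters' processing notes. The authors deposited 1 value per gene and library. These deposited values were read as FPKM with TMM scaling, a trimmed-mean factor per library; the unit was inferred from their steps. The methods name quantile normalization and log2 CPM, which the values do not carry.

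Values were tested as log2(FPKM + 1) with limma 3.58.1 in R 4.3.3 (empirical Bayes with a mean-variance trend), over genes that reached 1 FPKM in 3 or more libraries of the fit, with Benjamini-Hochberg adjustment over all of them. The fit over both genotypes had genotype as a covariate. The functions were tested on simulated data. Members of 0.1 FPKM or more in 3 libraries that were below the filter were compared by exact permutation tests (SciPy 1.17.1). Members are given by level; values of 1 member and 1 cofactor are not reported here, though counts include them. Statistics are given for calls, for members without overlap between genotypes and for the 3 largest changes, and for the top 2 genes of each other list; other genes were named after their values were seen. The members and lists were chosen with earlier results of these data known.

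After removal of group means over 11359 genes, same-number libraries correlated at 0.65, 0.78 and 0.69 between genotypes in the DZ and at 0.42, 0.78 and 0.65 between zones in R3-cKO, so the numbers were taken to pair them. The study describes SFZ and DZ cells from 3 mice of each genotype, littermates, so the zones appear to share animals, but which libraries share a mouse or litter is not given. Fits without the block treat the libraries as separate.

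Alternatives were quantile normalization, median-of-ratios size factors, pseudocounts of 0.1 and 5, no filter, a mean of at least 10 FPKM, the replicate block, all libraries in 1 model and each library left out. Genes were placed with GENCODE vM1 (mm9) and promoters with RefSeq GRCm38.p6.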

Additional observations from a re-analysis of the deposited data

How the results depend on the processing

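Of the values of genes named by the rule, 505 were recomputed under the alternatives and 0 changed sign. Outside the rule signs did change: between zones Hoxa3, Hoxa4, Hoxa5, Hoxa6 and Hoxc13, none of them called, went from -0.20, -0.0010, -0.08, -0.09 and -0.10 to 0.07, 0.28, 0.15, 0.18 and 0.18 after quantile normalization. The number of Hox genes called between zones over both genotypes, 13, fell to 3 with a mean of at least 10 FPKM, which left 7 genes to test, and was 9 to 12 with a library left out. The unadjusted counts with a library left out were 13 to 17 for the zones over both genotypes, 2 to 9 in R3-Cntl, 8 to 13 in R3-cKO, 0 to 3 for genotypes in SFZ, 0 to 4 in DZ and 1 to 6 for the interaction. With a mean of at least 10 FPKM they were 4, 1, 5, 2, 1 and 2 in that order. In R3-Cntl the unadjusted zone count of 7 became 3 with quantile normalization, 4 with median-of-ratios size factors and 13 with no filter. In R3-cKO the count of 14 became 23 with no filter, where 1 gene was called. With all 12 libraries in 1 model, 2 genes were called between zones in R3-Cntl and 8 in R3-cKO, against 0 each, and over all 11336 genes tested the calls were 798 against 140 and 165 against 2. The cause of these changes was not tested where the alternative itself does not fix the genes or samples.

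With the replicate number as a block, 13 Hox genes were called between zones over both genotypes, all lower, since Hoxd10 entered (limma adjusted p = 0.0357) and the call on the higher side was lost, and 1 in R3-cKO. Over all genes the block moved the calls from 2725 to 3965 over both genotypes, from 140 to 831 in R3-Cntl and from 2 to 352 in R3-cKO. No other call changed, and 0 were called in R3-Cntl, between genotypes and for the interaction. The numbers are not known to pair the R3-Cntl SFZ libraries: same-number correlations were 0.58, 0.11 and -0.15 between zones in R3-Cntl and 0.79, -0.09 and -0.42 between genotypes in SFZ, and libraries 2 and 3 correlated best with the other number. That is a hint from the data, not the design. Depth limits the lowest members: Hoxb8, Hoxb13, Hoxd1 and Hoxc12 rest on means of about 2.51, 2.39, 1.93 and 3.23 fragments per library.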

Other observations

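Once the group means were removed, the median correlation between members was higher within a cluster than between clusters, with ranges that largely overlapped. Over the 12 libraries it was 0.30 for 86 pairs of tested genes within a cluster (-0.43 to 0.93). For 239 pairs between clusters it was 0.10 (-0.81 to 0.90). Within Hoxd it was 0.53 for 10 pairs, and within Hoxa 0.25 for 45 pairs. These are descriptions over libraries that share their preparation, and overlapping genes such as Hoxd3 and Hoxd4 share fragments.

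The genes of limb identity were present together. Tbx5, which specifies the forelimb, was at 10.1 to 14.5 FPKM in SFZ and 3.85 to 10.4 in DZ libraries, and Tbx4, which specifies the hindlimb, at 4.79 to 7.95 in SFZ and 1.77 to 5.05 in DZ, although the methods of the study name the femur and tibia. Both were called lower in the DZ (limma, log2 differences of -0.77 and -0.70, adjusted p = 0.0116 and 0.0301), while under the other scalings the call of Tbx5 held and that of Tbx4 was lost (limma adjusted p = 0.0684 with median-of-ratios size factors and 0.102 after quantile normalization). Pitx1 was not called (-0.07, SE 0.14).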
